A study of Zea mays with 6 samples.

Results

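The regions described here are the stretches of the maize genome at which KNOTTED1 (KN1) gave a peak in both tassel lists and no peak in the ear list. Peaks of the 3 lists that shared at least 1 bp were merged, and a merged region on chromosomes 1 to 10 was a member when it held a peak of each tassel list and none of the ear list. The rule gave 239 members of 43952 merged regions. The members were thus chosen by the measured presence and absence of peaks, so their peak values are a description and carry no test, and no value below is a test of tassel against ear.

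KN1 is the founding KNOX homeodomain protein of maize. It is made in shoot meristems and kept out of young leaf primordia, and loss of its function leaves inflorescences with too few branches and flowers. KNOX proteins keep meristem cells undifferentiated, in part by acting on genes of hormone metabolism. The tassel (male, at the shoot tip) and the ear (female, on a side branch) both form from inflorescence meristems. They differ later, since the tassel makes long branches at its base and the ear does not.

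The series holds 6 samples, all from inbred B73 plants grown in a field. Chromatin of tassel primordia (2 samples) and of ear primordia (1 sample) was precipitated with anti-KN1 antibodies, and each ChIP sample has its own total input DNA as control. No mutant and no control antibody is among the labels. One tassel sample, called tassel replicate 2 here, has a title that names tassels 2 and 3 and may be a pool. Primordia were fixed for 10 minutes in 1% formaldehyde. Tassel chromatin was sheared to about 400 bp and carried barcoded adapters, whereas ear chromatin was sheared to about 100 bp, carried standard adapters and was cut from a gel at 150 to 350 bp after 18 PCR cycles. Tissue and library method therefore cannot be told apart in what sets the members against the ear.

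The lists hold 8855, 14893 and 24667 peaks on the numbered chromosomes for tassel replicates 1 and 2 and ear, and 87317, 165023 and 226165 tags in peaks over all sequences. Smallest and median widths are both 500 bp in each tassel list, but 200 and 322 bp in the ear list. Overlap with the ear is thus judged with mostly narrower peaks. The score of a peak is the negative log10 of its p-value from the peak caller MACS, multiplied by 10. The smallest score is about 50 in each list, and a tied score of 3100 recurs among the highest tassel scores, which reach 3230 and 3211. The false discovery rate (FDR) column read 100% for 96.2% of ear peaks and 41.8% of tassel replicate 1 peaks. Most ear peaks, and many of tassel replicate 1, were thus not separated from input by their FDR. It is not known whether the ear peaks were called on the ChIP reads against input or the other way round, and every statement below on the presence or absence of an ear peak carries this limit.

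Regions with a peak in both tassel lists numbered 569, of which the 239 members, or 42.0% (95% Wilson interval 38 to 46.1), held no ear peak. Among all 23166 regions with a peak of any tassel list, 83.8% held no ear peak. The members used 239 peaks of tassel replicate 1, or 2.70% of that list (2.38 to 3.06), and 242 of tassel replicate 2, or 1.62% (1.43 to 1.84). Of the members, 236 held 1 peak of each tassel list and 3 held 2 peaks of tassel replicate 2. Wilson intervals here cover counting error over regions, which can neighbour each other and are not replicates.

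Most members were modest peaks, with medians and shares above score and FDR limits close to those of the lists they came from. In tassel replicate 1 the members held from 3 to 547 tags, with a median of 6 (quartiles 4 and 14), and in tassel replicate 2 the tags per peak went from 4 to 73, with a median of 9 (6 and 15). The medians over all peaks were 5 (quartiles 4 and 10) and 9 (6 and 13). Upper score quartiles of the members were 470 and 445 in tassel replicates 1 and 2, against 370 and 397 of all peaks. In the best 1000 of tassel replicate 1 stood 45 of the members' 239 peaks, against 999 of all 8855. A score of at least 100 was reached by 73.6% of the members' peaks in tassel replicate 1 and by 88.8% in tassel replicate 2, against 75.7% and 89.8% of all peaks in those lists. An FDR of at most 20% was carried by 43.1% of the members' replicate 1 peaks (37.0 to 49.4), against 42.4% of that list, and by all 242 of their replicate 2 peaks, as in 100% of that list. The FDR was 100% for 100 of the members' replicate 1 peaks (41.8%, 35.8 to 48.2), against 41.8% of that list. Both scores were at least 100 in 163 members. With that limit set on the tassel lists, 40.1% of the regions called in both held no ear peak, against 42.0% without it. The limit therefore did not set members apart from the other regions called in both. In the 330 regions called in all 3 lists median tags per peak were 9 and 17 for tassel replicates 1 and 2, and 22 for the ear.

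Members stood apart from their lists in width. The smallest tassel peak is 500 bp wide with its summit in the middle, and it makes up most of both lists. Peaks wider than that were 26.8% of the members' peaks in tassel replicate 1 (21.6 to 32.7), against 7.78% of that list, and 30.6% in tassel replicate 2 (25.1 to 36.6), against 19.8%. A wider peak covers more bases that a peak of the other list can touch, and the part of this in the difference was not tested. Both peaks had the smallest width in 133 members (55.6%, 49.3 to 61.8), the peak of tassel replicate 1 alone was wider in 33, that of tassel replicate 2 alone in 42, and both were wider in 31. Of the 308 regions in all lists whose tassel peaks overlapped directly, both were wider in 108 (35.1%, 29.9 to 40.5) and neither in 60 (19.5%, 15.4 to 24.3). The other 22 regions in all lists were joined only through their ear peak.

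The tags of a member in one tassel list said little about its tags in the other. Across the 239 members, Pearson's r of log10 tags was 0.28 and Spearman's rho of tags 0.21. Among the 133 members with 2 peaks of the smallest width they were 0.06 and 0.07, and over the 330 regions in all lists Spearman's rho was 0.37. These are descriptions across regions, whose tags share 1 library on each axis and are cut off below by the peak threshold. Tags were under 20 in both lists in 170 members, of which 124 had 2 peaks of the smallest width. Tags of 20 or more were found in tassel replicate 1 only in 33 members, in tassel replicate 2 only in 22, and in both in 14.

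**Figure D1:**
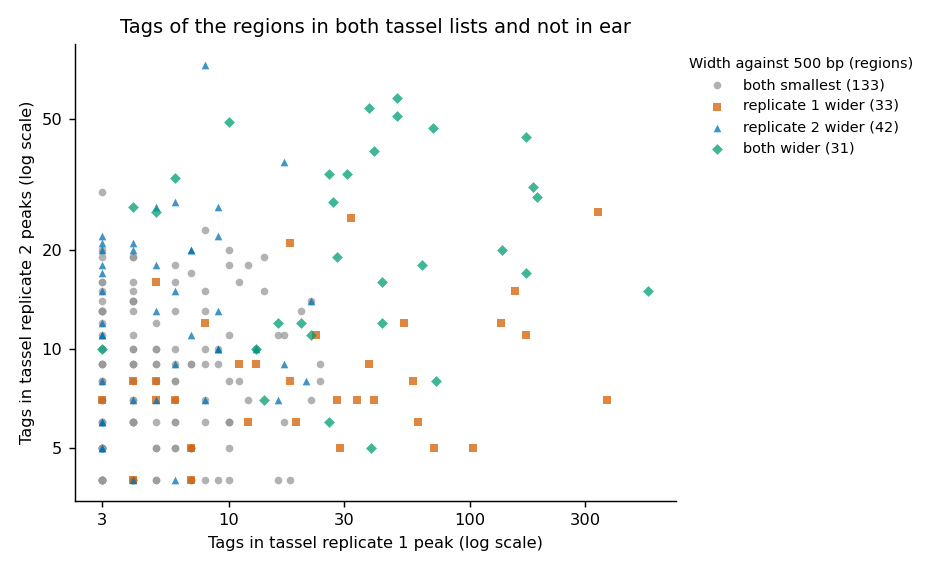
Tags of the 239 members in tassel replicate 1 (horizontal, log scale) and tassel replicate 2 (vertical, log scale, summed over the peaks of a region), 1 point a region, coloured by which tassel peak was wider than 500 bp. Most points lie under 20 tags on both axes, and the points above 50 tags in tassel replicate 1 all have a wide peak there.

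The 14 members with at least 20 tags in both lists, summed over the peaks of a region, are those with the most reads behind both calls. In 12 of them both peaks were wider than 500 bp, though some peaks only slightly so (501 to 528 bp). Of these 12, 5 gave nearly the same interval in each list. On chromosome 8 from 44141744 to 44142735, tassel replicate 1 had 50 tags and tassel replicate 2 had 58, with summits 9 bp apart and 973 bp shared. On chromosome 9 from 75829834 to 75830814 the counts were 38 and 54 tags, with summits 1 bp apart. Further along chromosome 9, from 153161106 to 153162087, they were 70 and 47, with summits also 1 bp apart. Each list had 40 tags on chromosome 2 from 185941709 to 185942821, with summits 6 bp apart and 1098 bp shared. On chromosome 10 from 102495674 to 102496656 the lists had 27 and 28 tags, with summits 29 bp apart. In these 5 the tags of the lists lay within 1.5 times of each other.

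Other members of this tag-rich group met less closely. The best ranked member, on chromosome 6 from 83438836 to 83439812, held 50 and 51 tags, but its peaks shared only 27 bp and their summits lay 475 bp apart, so the lists marked neighbouring rather than the same bases. On chromosome 3 from 4042528 to 4043504 (31 and 34 tags) and on chromosome 5 from 164450110 to 164451085 (26 and 34 tags) a peak of about the smallest width lay inside a wider peak of tassel replicate 1, with summits 236 and 224 bp apart. On chromosome 6 from 167506765 to 167508058 there were 32 and 25 tags and summits 409 bp apart.

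The remaining 5 of the 14 were broad peaks of tassel replicate 1 with far fewer tags in tassel replicate 2. The broadest, on chromosome 8 from 59745558 to 59753555, spanned 7998 bp with 338 tags in tassel replicate 1 and 26 tags in 2 peaks of tassel replicate 2, 1 of which had its summit 1 bp from that of replicate 1. On chromosome 4 from 56841974 to 56846727 there were 190 and 29 tags, the latter summed over 2 peaks, and summits 2179 bp apart, the widest spacing of any member. The regions on chromosome 1 from 48108386 to 48111641 (183 and 31 tags) and from 662230 to 664456 (171 and 44 tags) had summits 1159 and 1034 bp apart. On chromosome 5 from 140589940 to 140592777 there were 136 and 20 tags and summits 622 bp apart. Those 20 tags were also summed over 2 peaks, so neither peak alone reached 20.

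High tags in tassel replicate 1 were held by few members and were seldom matched. Of the members, 21 held 50 or more tags there, all of them in a peak wider than 500 bp, and together they had 3213 of the 5198 tags that members held in that list. Their tags in tassel replicate 2 went from 5 to 58, with a median of 15. The highest, on chromosome 4 from 48235966 to 48238054, had 547 tags against 15 in tassel replicate 2, and the next, on the same chromosome from 183032321 to 183033903, held 369 and 7. All members together held 5.97% of the tags in peaks of tassel replicate 1 and 1.81% of those in tassel replicate 2. The score of 3100 was carried by 9 of the members' peaks in tassel replicate 1, of 35 in that list, and by none of their peaks in tassel replicate 2.

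Only 4 members held 50 or more tags in tassel replicate 2. The highest was on chromosome 1 from 292277473 to 292278453, with 8 tags in tassel replicate 1 and 73 in tassel replicate 2. The tags of replicate 1 were at least 5 times those of replicate 2 in 18 members, and the reverse held in 19. Since the depth of the libraries is unknown, these ratios are given to show the spread and not a difference in binding.

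Ranked by the worse of their 2 score ranks, 9 members (3.77%, 1.99 to 7) stood in the best 1000 peaks of both tassel lists, against 33 of the regions in all lists (10.0%, 7.21 to 13.7). These 9 comprise the 4 on chromosomes 8, 9 and 2 that gave nearly the same interval in each list, the 2 on chromosome 6 and that on chromosome 3. The others are the region from 48108386 on chromosome 1 and a further one on chromosome 1 from 294970737 to 294971659 with 17 and 37 tags. Further down, members of the first 20 included narrower pairs. On chromosome 7 from 173953318 to 173953854 lay 18 and 21 tags with summits 36 bp apart. There were 14 and 19 tags on chromosome 8 from 158336008 to 158336801, 14 and 15 on chromosome 5 from 160542192 to 160542897, and 12 and 18 on chromosome 10 from 102598478 to 102599373, each with 2 peaks of 500 bp. Broader peaks of tassel replicate 1 made up the others of the 20 not named above, on chromosome 5 from 206484478 to 206488004 (153 and 15 tags) and from 195395778 to 195396934 (53 and 12 tags), and on chromosome 3 from 44696810 to 44698110 (43 and 16 tags).

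Between the tassel summits of a member the median distance was 224 bp (interval of the median 198 to 238, quartiles 104 and 380). In the 133 members with 2 peaks of 500 bp, where the peaks can only overlap if the summits are less than 500 bp apart, 31 had summits under 100 bp apart, 30 lay in each of the next 100 bp steps up to 300 bp, 16 lay from 300 bp and 26 from 400 bp. Summits were thus spread over the whole range that overlap allows, with no pile-up at short distances. The peaks shared a median of 354 bp, and 34 members shared under 100 bp. The summit of tassel replicate 1 had the higher coordinate in 113 members and the lower in 123, and 3 coincided exactly.

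Where both tassel peaks were wider, 9 of 31 members had summits under 100 bp apart (29.0%, 16.1 to 46.6), against 50 of 108 regions in all lists (46.3%, 37.2 to 55.7). The median spacing was 236 bp (121 to 331) in these members and 111 bp (71 to 147) in the regions of all lists. For pairs of 500 bp the medians were 208 bp (179 to 233) and 238 bp (126 to 287).

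**Figure D2:**
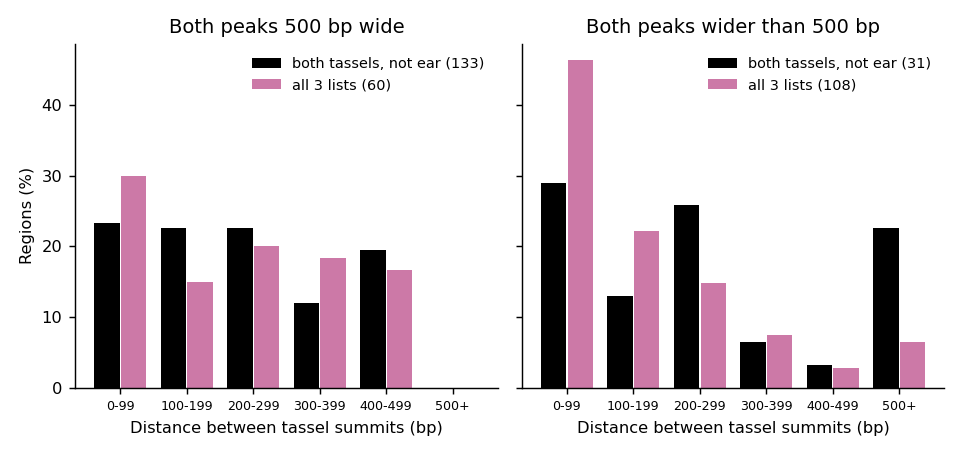
Share of regions by the distance between the summits of their tassel peaks, in steps of 100 bp, for members (black) and regions called in all 3 lists (pink), at left where both peaks were 500 bp wide and at right where both were wider. The black bars at left are spread over the steps under 500 bp, and the tallest pink bar at right is the step under 100 bp.

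A width of 970 to 990 bp recurred among the members. It was held by 17 of their 64 wide peaks in tassel replicate 1 (26.6%, 17.3 to 38.5), against 12.6% of the 689 wide peaks of that list and 8.20% of the 122 in regions of all lists. In tassel replicate 2 it was held by 11 of 74 (14.9%, 8.51 to 24.7), against 2.48% of 2942 and 4.07% of 246. This range was chosen after the widths were seen. Summits at most 10 bp apart were found in 17 members, and 6 of these had wide peaks in both lists, among them the region on chromosome 4 from 211534019 with 63 and 18 tags and that on chromosome 8 from 141078079 with 10 and 49 tags.

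Whether a region called in both tassels lacked an ear peak went with its values in tassel replicate 2. No ear peak was held by 43.7% (39.6 to 47.9) of all regions whose tassel peaks overlapped directly. Over the 547 regions whose tassel peaks overlapped directly, 61.5% (45.9 to 75.1) of those with under 5 tags in tassel replicate 2 held no ear peak, 60.6% (53.0 to 67.7) of those with 5 to 9, 45.4% (38.2 to 52.8) with 10 to 19, 26.7% (19.6 to 35.2) with 20 to 49 and 8.16% (3.22 to 19.2), or 4 of 49, with 50 or more. By tags of tassel replicate 1 the share went from 59.6% (51.5 to 67.2) under 5 tags to 29.9% (22.4 to 38.7) at 10 to 19, but was 36.1% (26.0 to 47.6) at 20 to 49 and 40.4% (28.2 to 53.9) at 50 or more. Regions rich in tags of tassel replicate 2 were thus seldom without an ear peak, while the share did not fall steadily with the tags of tassel replicate 1. A link to the ear was also seen outside the regions of both tassels. Tassel replicate 2 shared 3015 regions with the ear alone and tassel replicate 1 shared 397. Median tags per tassel peak in these were 10 and 7, against 8 and 5 in regions of tassel replicates 2 and 1 alone.

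Width divided the regions in a like way. A wider tassel peak covers more bases that an ear peak can touch. The part of this in the shares by width, and in those by tags, was not tested. No ear peak was held by 68.9% (62.1 to 75) of regions with 2 tassel peaks of 500 bp and by 71.7% (57.5 to 82.7) of those in which only the peak of tassel replicate 1 was wider. The share was 24.9% (18.9 to 31.9) where only the peak of tassel replicate 2 was wider and 22.3% (16.2 to 29.9) where both were. This too was not particular to regions of both tassels. Tassel replicate 2 peaks wider than 500 bp were 54.9% in regions shared with the ear alone, against 8.51% in regions of that list alone. For tassel replicate 1 these were 13.4% and 5.70%. With 20 or more tags in tassel replicate 1 only, 33 of 53 regions (62.3%, 48.8 to 74.1) were members, against 22 of 98 (22.4%, 15.3 to 31.7) with 20 or more in tassel replicate 2 only and 14 of 71 (19.7%, 12.1 to 30.4) with 20 or more in both. By the distance between summits the shares lay from 38.7% to 56.2% with no steady order.

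**Figure D3:**
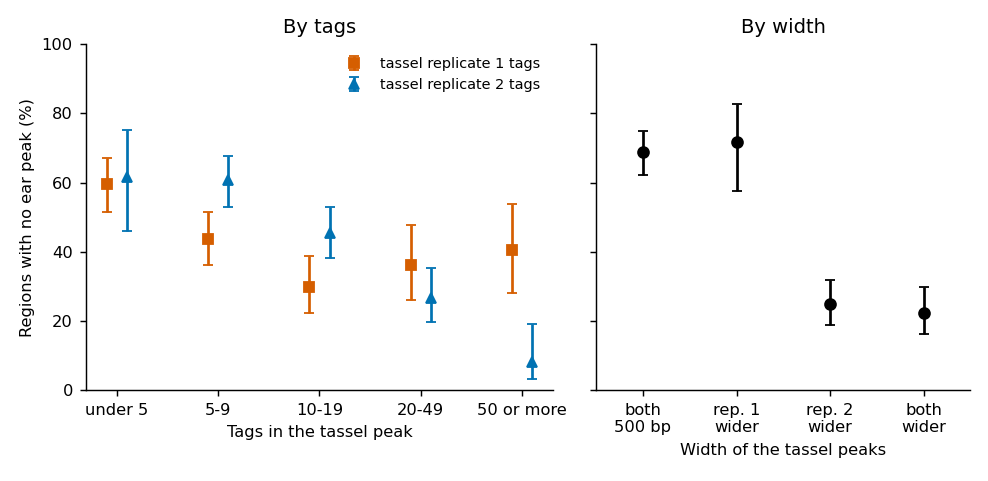
Share of the 547 regions with overlapping peaks of both tassel lists that held no ear peak, at left by the tags of tassel replicate 1 (squares) and of tassel replicate 2 (triangles), at right by the widths of both peaks, with 95% Wilson intervals. The triangles fall to 8.16% at 50 or more tags while the squares do not, and the share is lower wherever tassel replicate 2 had the wider peak.

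Absence of an ear peak means only that none was called. How many ear tags fell in the members was not analysed here, because the lists give tags for called peaks only. The number of members changed little with some choices of ear peaks and much with others. With the 8876 best scoring ear peaks kept, 279 regions were called in both tassels without ear, or 49.5% (45.4 to 53.6) of those in both. When only the 140 ear peaks with an FDR of 20% or less were counted, the number was 511, or 93.1% (90.6 to 94.9). The share among all regions with a tassel peak was not worked out for either choice. Requiring an FDR of at most 20% of the tassel peaks alone left 103 members, or 35.8% (30.4 to 41.5) of regions in both. Requiring it in all lists gave 260, or 91.9% (88.1 to 94.5).

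Few members were near misses against the ear: 13 of them (5.44%, 3.21 to 9.08) had an ear peak within 500 bp. In regions of all lists the ear peak overlapped a tassel peak by at least 95 bp. The member closest to an ear peak, on chromosome 2 from 2549303 to 2550197 (13 and 10 tags), ended 6 bp from an ear peak of 8 tags. The next were on chromosome 3 from 165414461 to 165414978 (3 and 16 tags, 30 bp from an ear peak of 19 tags) and on chromosome 1 from 61137802 to 61138537 (3 and 4 tags, 126 bp from one of 7 tags). Just outside the rule, the region on chromosome 6 from 165546816 to 165547485 (4 and 4 tags) was touched over 95 bp by an ear peak of 9 tags, that on chromosome 10 from 74887446 to 74888537 (4 and 12 tags) over 105 bp by one of 8 tags, and that on chromosome 1 from 207273497 to 207274315 (6 and 6 tags) over 128 bp by one of 5 tags. All 3 of those ear peaks had an FDR of 100%. On the side of tassel with tassel, the shortest overlaps were 2 bp on chromosome 8 from 103254248 to 103255989 (3 and 11 tags), 8 bp on chromosome 1 from 232993035 to 232994026 (3 and 13 tags) and 11 bp on chromosome 9 from 18721865 to 18722853 (4 and 10 tags).

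Many members had an ear peak nearby although none on them. The nearest ear peak lay a median of 17.0 kb away (interval of the median 11 to 24.9, quartiles 4.15 and 51.3). An ear peak lay within 10 kb of 100 members, or 41.8% (35.8 to 48.2), against 32.7% of all regions that held a tassel peak and no ear peak. The share was 29.3% (28.4 to 30.4) for the 7889 regions of tassel replicate 1 alone and 34.8% (33.9 to 35.6) for the 11296 of tassel replicate 2 alone, whose medians were 26.6 and 22.5 kb. Within 500 bp the shares were 5.44% (3.21 to 9.08), 3.04% and 4.19%. Of the nearest ear peaks within 10 kb, 92 of 100 had an FDR of 100%, and their median tag count was 7. The share also went with width in tassel replicate 2. Its 961 regions wider than 500 bp and in no other list had an ear peak within 10 kb in 46.5% of cases (43.4 to 49.7) and a median distance of 12.6 kb, so they lay at least as near to ear peaks as the members did. Among peaks of the smallest width alone, the shares were 44.4% (36.2 to 52.8) for the 133 members with 2 such peaks, 29.5% for tassel replicate 1 alone and 33.7% for tassel replicate 2 alone. No test was made of the differences between these classes.

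Median tags were lower in members near an ear peak than in the others, mainly in tassel replicate 1. Members within 10 kb of an ear peak had medians of 5 (quartiles 3.75 and 9) and 8.50 (5.75 and 13.2) tags in tassel replicates 1 and 2. The 139 farther off had 8 (4 and 22) and 10 (7 and 16), so the ranges between quartiles overlapped. Of the 170 members with under 20 tags in both lists, 81 (47.6%, 40.3 to 55.1) had an ear peak within 10 kb. So had 10 of the 22 with 20 or more tags in tassel replicate 2 only (45.5%, 26.9 to 65.3) and 9 of the 33 with as many in tassel replicate 1 only (27.3%, 15.1 to 44.2). None of the 14 members with 20 or more tags in both did, which allows a share of up to 21.5% by the same interval. Their nearest ear peak was 14.2 kb away, and the median distance was 50.7 kb. The division at 20 tags was chosen after the data were seen. The members farthest from any ear peak lay on chromosome 7 from 62708081 to 62708703 (3 and 7 tags, 459 kb), at the start of chromosome 1 from 662230 (269 kb) and on chromosome 4 from 97540001 to 97540505 (4 and 4 tags, 235 kb).

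A region called in both ear and tassel lay within 10 kb of 35 members (14.6%, 10.7 to 19.7). This was so for 6.34% (5.82 to 6.90) of regions of tassel replicate 1 alone and 8.47% (7.97 to 9) of those of tassel replicate 2 alone, but for 13.9% (11.9 to 16.3) of the latter that were wider than 500 bp, a share close to that of the members.

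**Figure D4:**
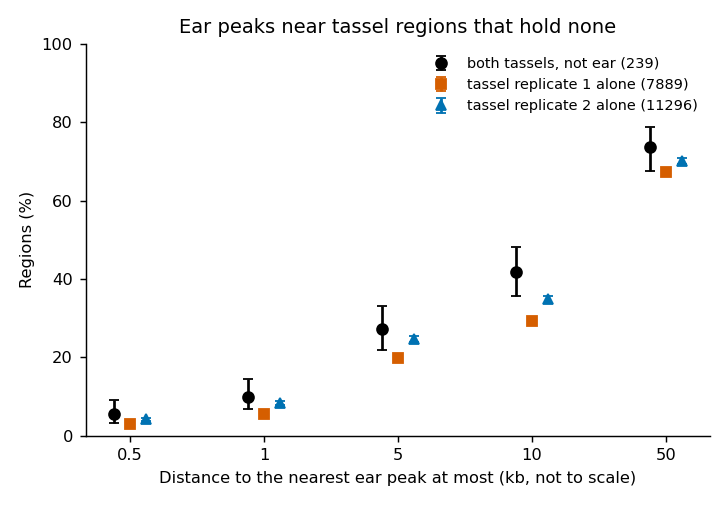
Share of regions with an ear peak within 0.5, 1, 5, 10 and 50 kb, for members (circles), regions of tassel replicate 1 alone (squares) and of tassel replicate 2 alone (triangles), none of which holds an ear peak, with 95% Wilson intervals. At 10 kb the members stand at 41.8% and the other classes, of all widths together, at 29.3% and 34.8%.

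Members were found on all 10 chromosomes, from 15 on chromosome 7 to 43 on chromosome 1. Per 100 Mb there were from 8.49 on chromosome 7 to 15.2 on chromosome 5, with 11.6 over all. The share of regions in both tassels that lacked an ear peak lay between 34.9% (24.3 to 47.2) on chromosome 3 and 50% (37.1 to 62.9) on chromosome 4, with intervals that overlapped. Along the chromosomes, 31.0% of members (25.4 to 37.1) lay in the fifth nearest to the ends and 13.4% (9.65 to 18.3) in the fifth around the middle. In regions of all lists these were 34.5% and 11.5%, in tassel replicate 1 alone 24.1% and 17.7%, and in tassel replicate 2 alone 26.3% and 16.4%. The outer 40% held 131 members (54.8%, 48.5 to 61.0), against 48.9% of all regions. The other classes found in more than 1 list had higher shares there. These were 57.0% for all lists, 61.6% for tassel replicate 2 and ear, and 56.7% for tassel replicate 1 and ear. The outer 40% held 55 of the 100 members near an ear peak and 76 of the 139 others. Of the 10 chromosomes, chromosome 9 had the highest share of its members in the outer 40% (14 of 16) and chromosome 4 the lowest (12 of 27). These are small counts, and no share of all regions by chromosome is set beside them.

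**Figure D5:**
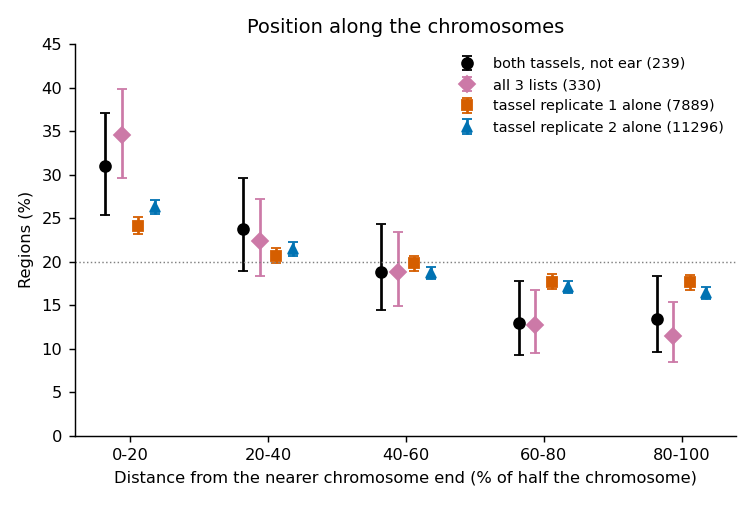
Share of regions in 5 equal steps from the nearer chromosome end to the middle, for members (circles), regions of all 3 lists (diamonds), tassel replicate 1 alone (squares) and tassel replicate 2 alone (triangles), with 95% Wilson intervals. The dotted line at 20% is an even spread. Members go from 31.0% at the ends to 13.4% in the middle.

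Some members lay close to each other. Of 229 pairs of neighbouring members on the same chromosome, 38 were within 1 Mb and 5 within 100 kb, and the median gap was 3.67 Mb. No spacing of other regions is set beside these counts, so they do not show whether members cluster. The closest pair lay on chromosome 5, where the region from 206482010 to 206483327 (43 and 12 tags, 1168 bp shared by its tassel peaks) stood 1.15 kb before that from 206484478 to 206488004 (153 and 15 tags). On chromosome 1 the regions from 48108386 and from 48133433 to 48138162, 21.8 kb apart, held 183 and 171 tags in tassel replicate 1 and 31 and 11 in tassel replicate 2. The other close pairs lay on chromosome 6 from 155624264 (3.15 kb apart), chromosome 4 from 120628593 (4.93 kb) and chromosome 1 from 254785412 (11.2 kb), and each of their 6 regions held fewer than 25 tags in either list.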

How the data were processed

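The deposited lists have no header, so columns were read in the usual order of MACS, whose peak names they carry, and checked against the values. CASAVA and Bowtie are the tools in the submitters' processing notes. Not given in the sources used here are the genome build, the aligner's settings and the MACS version. Coordinates are as deposited, and no neighbouring gene or sequence is given, because no source used here names the build of the files and the gene table could not be matched to it. The deposited tag counts are whole tags per peak and were read as ChIP tags, with the limit given above for the ear list. The deposited score is 10 times the negative log10 of the p-value. The deposited fold enrichment is a ratio to local background, and the deposited percentage was read as the FDR. Width and summit offset are other deposited columns in bp. Total depth and the inputs were not analysed here.

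Peaks were merged with pandas 2.3.3 and numpy 2.4.6 in Python 3.11.15, intervals came from scipy 1.17.1, and values were plotted with matplotlib 3.10.9. No 2 peaks of a list overlapped. The members equalled those of bedtools 2.31.1 (0 differed), and classes and distances were tested on simulated data. With several peaks of a list in a region, tags were summed, the best score was taken, and the pair with the longest overlap gave the summits. A distance is the gap between nearest ends. The highest peak end stood in for chromosome length. Intervals are 95% Wilson intervals, or binomial intervals of a median, and cover counting error only, since tags carry no molecular identifiers and need not be separate molecules. There is no p-value: regions are not replicates, and there is 1 ear list.

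The members, the comparisons and the rule for named regions were chosen with earlier results of these data known. Named regions are the 20 with the best worst rank (ties by tags), the 3 each with the most tags in a tassel list, the shortest and longest overlap, and the least and greatest distance to an ear peak, and the 3 regions of all lists touched by the ear over the fewest bases. Those named beyond the rule (members with 20 or more tags in both lists, close neighbours and summits at most 10 bp apart) were chosen after their values were seen. On sequences other than the numbered chromosomes, 2 further regions met the rule.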

Additional observations from a re-analysis of the deposited data

How the results depend on the processing

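Of 81 alternative values, 44 lay inside the interval of the reported value (for counts, within 1.5 times), and 37 moved. The choices on the ear list alone and on tassel peaks of 500 bp alone were added after the data were seen. The 239 members became 103 at an FDR of at most 20% in the tassel lists, 511 at that FDR in the ear list alone and 133 with tassel peaks of 500 bp alone. Leaving out a list changes what a member is and gave from 547 regions (without ear) to 11541 (without tassel replicate 1). The share without ear (42.0%) became 47.7% at scores of at least 100 in all lists, 35.8% at an FDR of at most 20% in the tassel lists, 91.9% at that FDR in all lists, 93.1% in the ear list alone, 49.5% with the 8876 best ear peaks and 65.2% with tassel peaks of 500 bp. The median distance to an ear peak (17.0 kb) and the share within 10 kb (41.8%) became 106 kb and 16.1% at scores of at least 100 in all lists, 29.7 kb and 31.1% at the FDR limit in the tassel lists, 4708 kb and 1.15% in all lists, 4905 kb and 0.978% in the ear list alone, and 61.1 kb and 21.9% with the 8876 best ear peaks. Apart from the limit on the tassel lists, these choices leave fewer ear peaks, and for that limit the cause was not tested. The share within 10 kb was 35.6% with scores of at least 100 in the tassel lists. Without a tassel list the distance was 22.3 to 26.1 kb and the share 29.8% to 34.9%. The summit spacing (224 bp) became 164 bp where 50% of the shorter peak had to overlap, 168 bp with windows of 400 bp and 373 bp with peaks up to 500 bp apart merged, as those limits on overlap set it. The share of members with 2 peaks of 500 bp (55.6%) became 64.8% with that merging, and 43.7%, 28.1% and 37.6% at the FDR limit in the tassel lists, all lists and the ear list alone. The share in the outer 40% (54.8%) stayed within its interval in every choice of peaks and was 45.2% to 47.9% without a tassel list. The outer 20% and 50% held 31.0% and 67.8%. Tags set the precision: the median member had 6 and 9.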
